A study of Mus musculus with 4 samples.

Results

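The genes of the translation initiation and elongation factors were taken as every row of the expression matrix whose symbol begins with Eif followed by a digit from 1 to 6, or with Eef followed by 1 or 2. This gave 66 of 20325 genes. The matrix holds RNA-seq counts of mouse C3H10T1/2 cells, a multipotent mesenchymal line made from C3H embryos and used here at passage 10 to 15. The K36M cells stably expressed FLAG-HA-tagged histone H3.3 in which lysine 36 is replaced by methionine (2 libraries), and the WT cells stably expressed FLAG-HA-tagged wild type H3.3 (2 libraries). Both groups therefore carried a tagged H3.3 transgene in the same line, and both were grown in DMEM with serum. The sources used here do not say whether each line was a clone or a pool, what promoter drove the transgene, or whether replicates were separate cultures. The spread behind every p-value is therefore that between libraries and may be technical.

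Protein synthesis begins when eIF2 brings the initiator tRNA to the small ribosomal subunit, together with eIF1, eIF1A, eIF5 and the large eIF3 complex. The cap-binding complex of eIF4E, eIF4G and the helicase eIF4A recruits the messenger RNA, and 4E-binding proteins block eIF4E when the growth kinase mTORC1 is inactive. Kinases that phosphorylate eIF2 alpha slow initiation under stress through its exchange factor eIF2B. During elongation eEF1A delivers aminoacyl-tRNAs, the eEF1B subunits recharge it with GTP, and eEF2 moves the ribosome along.

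Libraries held 56041798 and 34022137 expected counts in K36M and 25322433 and 23343297 in WT. Levels are given as CPM, the count scaled by library size and TMM factor; CPM do not correct for gene length, so levels are compared across libraries and not across genes. All 9 mesenchymal marker genes examined were detected (3 higher in K36M, 5 lower, 1 not called), with summed levels of 23123 and 21464 CPM in the K36M libraries and 26053 and 25631 CPM in the WT libraries. Of 14 markers of blood, epithelium, endothelium, nerve and skeletal muscle found in the matrix, 4 (Epcam, Myog, Myod1 and Hbb-b1) were at 0 in every library. The 14 together reached 53.5 and 53.8 CPM in K36M against 21.5 and 20.6 CPM in WT, most of it from Cdh1 and Tubb3. Of the 5 such markers with enough counts to test 4 rose, and their part in the results was not tested. In bulk RNA, fewer cells of a type and less RNA per cell cannot be told apart.

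Of the 66 genes 63 passed the filter on low counts. The threshold was an adjusted p of 0.05 in edgeR's quasi-likelihood test of K36M against WT. By that rule 33 of the 63 rose in K36M cells (52.4%) and 17 fell (27.0%), while 38.5% of all 13162 genes tested rose and 37.1% fell (75.6% called either way). The median log2 fold change was 0.13 over the 63 and 0.00 over all genes tested. Changes were mostly small. Only 5 members rose and 4 fell by at least 1.5-fold, against 18.7% and 15.3% of all genes that did so. In 58 of the 63 (92.1%) the K36M and WT libraries did not overlap, which was also so in 87.1% of all genes tested. Both K36M libraries lay above both WT libraries in 38 members (60.3%) and below them in 20 (31.7%), against 44% and 43.1% of all genes tested. The spread between replicates was low, with a median coefficient of variation of 2.69% in K36M and 2.12% in WT over the members.

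**Figure D1:**
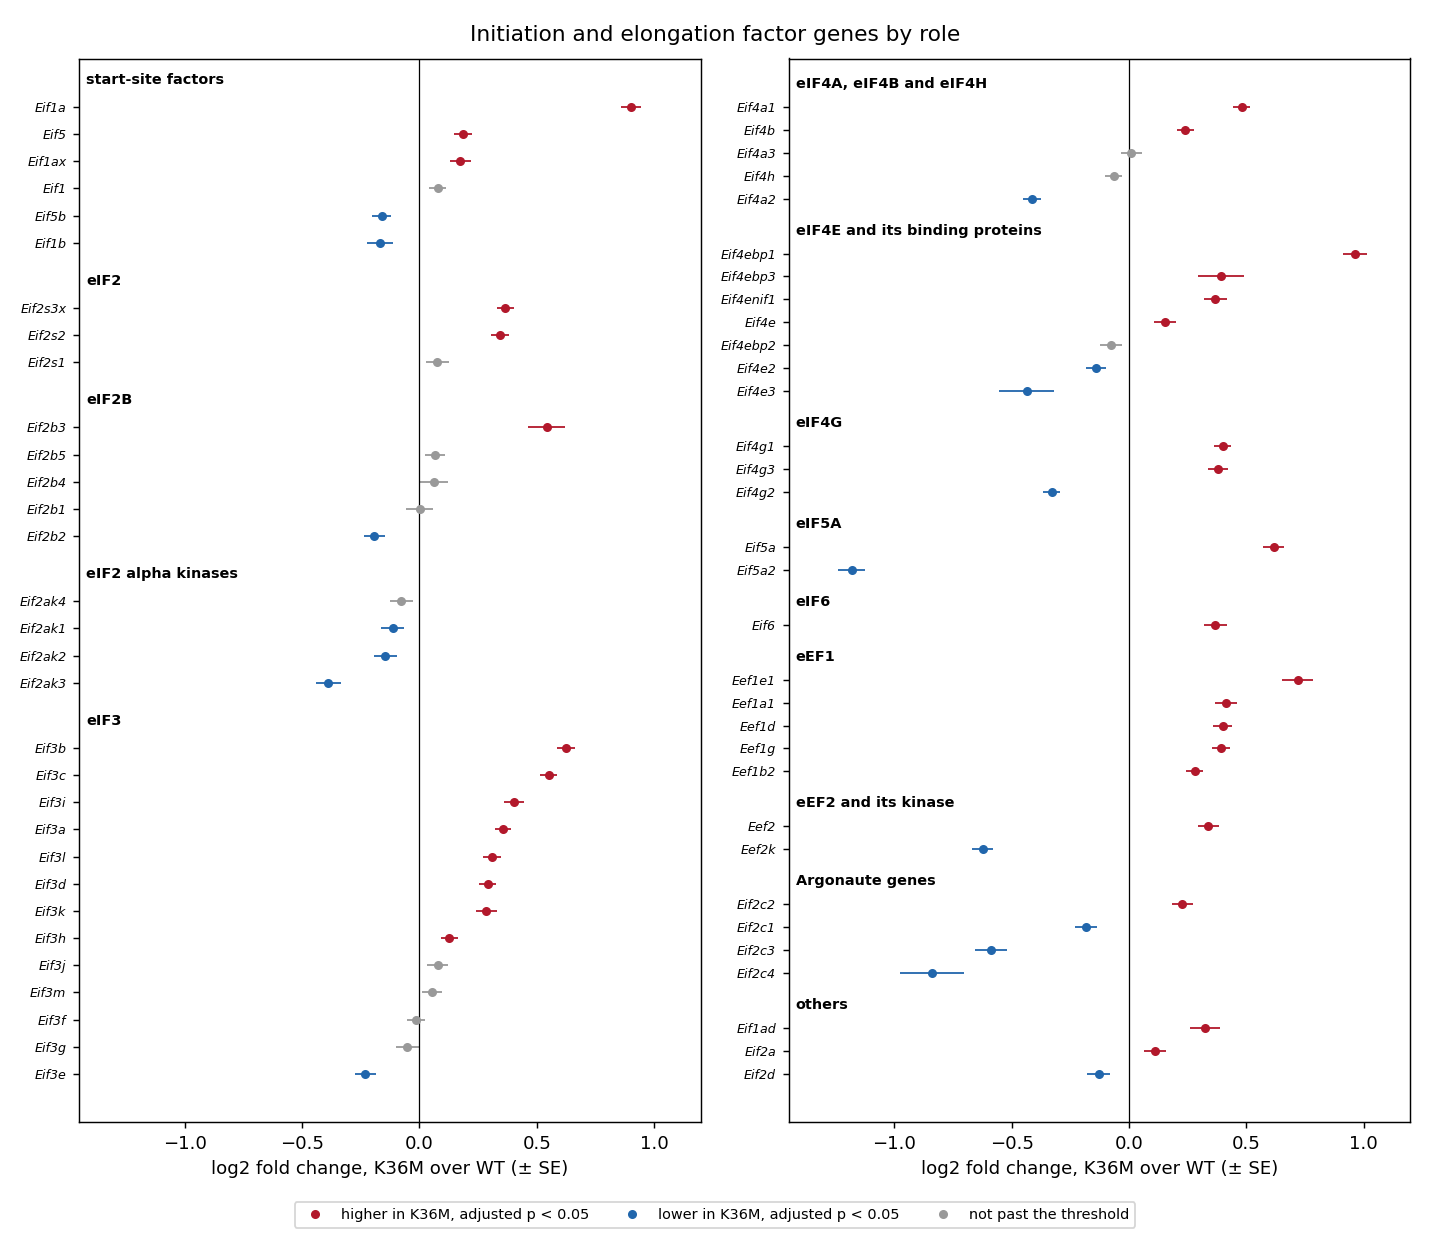
Log2 fold change (K36M over WT, horizontal axis) of the 63 tested genes grouped by role, with bars of 1 standard error from edgeR; red and blue mark genes higher and lower in K36M at an adjusted p under 0.05, grey the rest. The eEF1 genes lie to the right of 0, the eIF2 alpha kinase genes to the left, and most families with several paralogs have members on both sides.

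Factor genes took a larger part of the sequenced RNA in K36M cells. All members together made up 3.07% and 3.13% of counts in the K36M libraries and 2.45% and 2.44% in the WT libraries. Each is a share of the library's own total, which amounts to scaling by total counts. Of the scalings tried, that one called the most members higher, 38 against 33 with TMM. The exact (Clopper-Pearson) 95% intervals were 3.066 to 3.075% and 3.127 to 3.139% in K36M, and 2.447 to 2.459% and 2.435 to 2.447% in WT, and cover counting error only. Eef1a1 alone accounted for 1.06% and 1.13% of counts in K36M against 0.795% and 0.795% in WT. Without Eef1a1 and Eef2 the other members still made up 1.48% and 1.49% in K36M and 1.26% and 1.25% in WT.

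Several factor genes, Eef1a1 and Eef2 among them, belong to the 5' terminal oligopyrimidine (TOP) class, messenger RNAs that start with a C followed by a run of C and T and that mTORC1 controls in translation. Stretches of 30 bases around the annotated start are shown for members with such a run, to set the letters beside the RNA change. They run from 8 bases before to 22 bases after a RefSeq start (GRCm38.p6), with the longest run of at least 7 letters that begins with C and holds only C or T in capitals, read on the transcribed strand.
Eef1a1, chr9:78481703-78481732, minus strand: ccgCCCTCTTCCCgagggtgggggagaacg
Eef2, chr10:81176623-81176652, plus strand: ggccgggcgttgacgtcagcggtCTCTTCC
Eif2s3x, chrX:94212630-94212659, minus strand: gcattttCCTTTTCTCTCCgagcaagatgg
Eif3l, chr15:79075215-79075244, plus strand: gttcttcttccgCTCTCTCCCacgggcttc
Eif3f, chr7:108934407-108934436, plus strand: taggCTCTCTCTCTTTCTCggcaagatggc
Eif2b2, chr12:85219473-85219502, plus strand: gagcggaagttgaCCTCTCTCggcccggaa

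The genes in this list did not move alike. Eef1a1, Eef2, Eif2s3x and Eif3l rose, Eif3f, whose run of 15 letters was the longest among the members, was not called, and Eif2b2 fell. RefSeq promoters were found for 50 of the 63 tested members. A run of this kind stood in the window of 12 of these 50 (24.0%), in 8 of 23 members that rose and in 1 of 14 that fell, against 16.5% of 10411 tested genes with a promoter and 45.8% of 59 ribosomal protein genes. Annotated starts can be some bases off, so a window without a run says nothing about the transcript.

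A second motif looked for was the E-box CACGTG, which reads the same on both strands and is the site of MYC and related factors. It occurred in the 300-base promoter of 12 of 50 members (24.0%), against 11.5% of the 10411 tested genes. It was present in 7 of 23 members that rose, 3 of 14 that fell and 2 of 13 that were not called. The stretches below, all upstream of the start and with the motif in capitals, come from a pair of genes that rose (Eef2 and Eif4a1) and a pair that fell (Eif5a2 and Eef2k).
Eef2, chr10:81176563-81176618, plus strand: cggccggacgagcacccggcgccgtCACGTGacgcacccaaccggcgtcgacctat
Eif4a1, chr11:69672582-69672637, minus strand: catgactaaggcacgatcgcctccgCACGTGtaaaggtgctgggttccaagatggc
Eif5a2, chr3:28781110-28781190, plus strand: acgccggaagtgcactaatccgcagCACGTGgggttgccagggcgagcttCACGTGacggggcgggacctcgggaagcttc
Eef2k, chr7:120842775-120842830, plus strand: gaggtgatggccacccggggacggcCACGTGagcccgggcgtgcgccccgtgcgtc
The motif is thus found beside genes of either direction, and a match is a description of the letters, not a measured site.

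All 5 tested genes grouped under the elongation factor eEF1 rose, while 38.5% of all genes tested did so. Eef1a1, which delivers aminoacyl-tRNA to the ribosome, stood at 10484 and 11058 CPM in K36M and 8121 and 8061 CPM in WT, a log2 fold change of 0.41 ± 0.047 (SE, adjusted p = 2.64e-07). The eEF1B subunit genes Eef1b2, Eef1d and Eef1g, whose proteins exchange GDP for GTP on eEF1A, rose by log2 fold changes of 0.28, 0.40 and 0.39. Eef1b2, the smallest change of the group, had 708 and 736 CPM in K36M and 599 and 590 CPM in WT. Eef1e1, a scaffold protein of the multi-tRNA-synthetase complex, rose furthest, with 27.7 and 28.5 CPM in K36M against 17.3 and 16.7 CPM in WT (log2 fold change 0.72 ± 0.066, adjusted p = 1.24e-08). The 5 tested genes had no overlap between groups, as was so in 87.1% of all genes tested, and kept their calls in all 12 alternative analyses.

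The muscle and nerve paralog Eef1a2 was barely read and was not tested. It had 13 counts over both K36M libraries and 1 count over both WT libraries, a depth-scaled ratio of 6.79 with a 95% counting interval of 1.02 to 288. That interval pools the libraries and covers counting error only. Of the K36M counts 11 came from K36M replicate 1, and K36M replicate 2 had 2.01 against 1 and 0 in the WT libraries.

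Eef2 and the kinase that inactivates its protein went opposite ways. Eef2, the translocase of elongation, reached 5239 and 4993 CPM in K36M and 4074 and 4020 CPM in WT, a log2 fold change of 0.34 ± 0.045 (adjusted p = 2.09e-06). Eef2k had 91.3 and 87.1 CPM in K36M against 136 and 140 CPM in WT, 1.54-fold lower (log2 fold change -0.62 ± 0.044, adjusted p = 2.82e-10). The K36M libraries were above WT for the factor and below WT for its kinase, with no overlap. Such a lack of overlap was seen in 87.1% of all genes tested.

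Both paralogs of eIF5A, the factor that carries the modified lysine hypusine and helps ribosomes past difficult peptide bonds, changed, in opposite directions. Eif5a rose, with 726 and 649 CPM in K36M and 457 and 440 CPM in WT (log2 fold change 0.62 ± 0.045, adjusted p = 5.27e-10). Eif5a2 was the member that fell furthest, with 17.9 and 17.9 CPM in K36M and 39.5 and 41.8 CPM in WT, 2.27-fold lower (log2 fold change -1.18 ± 0.058, adjusted p = 1.58e-12). Counts of Eif5a2 per count of Eif5a were 0.0247 and 0.0276 in the K36M libraries and 0.0865 and 0.095 in the WT libraries, 3.48-fold lower in K36M. Eif6, which keeps the large ribosomal subunit from joining too early, rose, with 102 and 95.8 CPM in K36M and 78.6 and 74.7 CPM in WT (log2 fold change 0.37 ± 0.048, adjusted p = 1.44e-06).

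**Figure D2:**
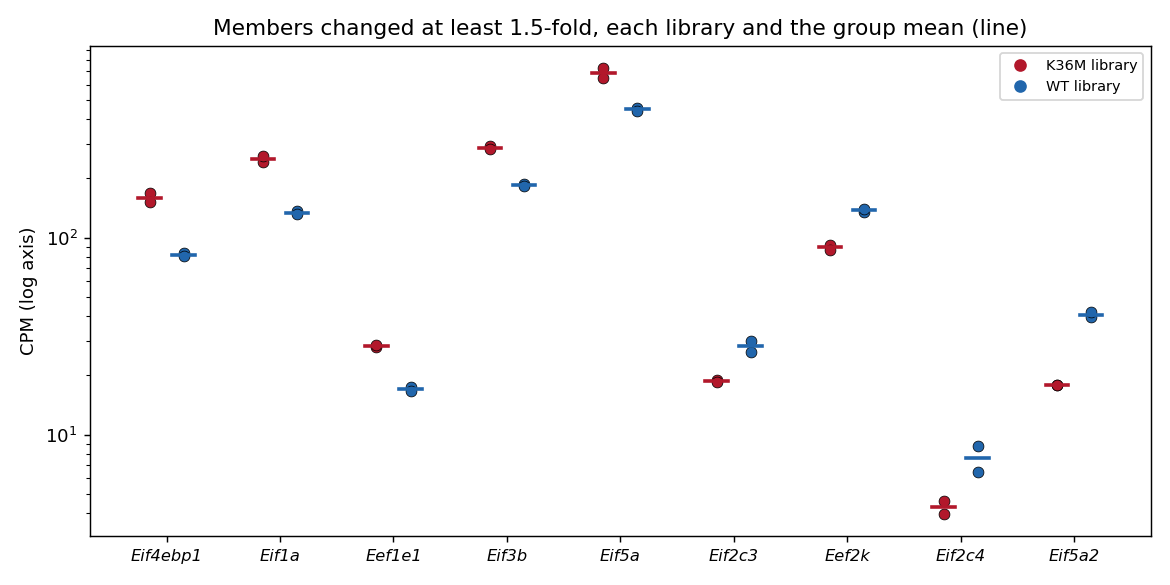
CPM (log axis) of the 9 members called with a change of at least 1.5-fold, each point a library (K36M red, WT blue) and each line a group mean. Genes run from Eif4ebp1 at the left, the largest rise, to Eif5a2 at the right, the largest fall. Points of the groups do not overlap for any of the 9, which were chosen by their change. The same held for 87.1% of all genes tested.

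The repressors of cap-dependent initiation did not move as a group. Eif4ebp1, which encodes the best known 4E-binding protein, showed the largest rise of all members, with 169 and 151 CPM in K36M and 83.7 and 80.3 CPM in WT, 1.95-fold higher (log2 fold change 0.97 ± 0.052, adjusted p = 5.09e-12). Eif4ebp3, with 10.5 and 11.8 CPM in K36M against 8.67 and 8.12 CPM in WT, also rose (log2 fold change 0.39 ± 0.098, adjusted p = 0.00152). Eif4ebp2 did not pass the test, with 62.9 and 61.6 CPM in K36M and 64.7 and 66.8 CPM in WT (log2 fold change -0.08 ± 0.046, adjusted p = 0.139). Under the authors' scaling factors it was called lower (log2 fold change -0.16, adjusted p = 0.00384). Per count of Eif4ebp1 there were 0.373 and 0.408 counts of Eif4ebp2 in K36M and 0.773 and 0.832 in WT, 2.06-fold lower in K36M.

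Of the genes for cap-binding proteins, Eif4e rose and Eif4e2 and Eif4e3 fell. Eif4e, the main cap-binding gene, had 86.8 and 91.5 CPM in K36M and 81.8 and 78.3 CPM in WT (log2 fold change 0.15 ± 0.047, adjusted p = 0.00696). That call was lost without WT replicate 2 (adjusted p = 0.142) and under the authors' scaling factors (0.215). The paralogs Eif4e2, which takes part in repression by cap competition, and Eif4e3 fell, by log2 fold changes of -0.14 and -0.44. Eif4e3 was weakly read, at 4.44 and 4.43 CPM in K36M and 6.17 and 5.82 CPM in WT, and the Eif4e2 call was lost when WT replicate 2 was left out (adjusted p = 0.0738) and with scaling by total counts (0.068). Eif4e1b, known as an oocyte form, was not tested, with 17 counts over the K36M and 4 over the WT libraries. Eif4enif1, which encodes the eIF4E transporter, rose (log2 fold change 0.37).

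Scaffold and helicase families were split between paralogs. Eif4g1, the main scaffold of the cap complex, rose, with 868 and 842 CPM in K36M against 657 and 639 CPM in WT (log2 fold change 0.40 ± 0.036, adjusted p = 8.84e-09), and its close relative Eif4g3 rose by 0.38. Eif4g2, whose protein lacks the eIF4E binding site and serves cap-independent initiation, fell, with 966 and 973 CPM in K36M and 1232 and 1203 CPM in WT (log2 fold change -0.33 ± 0.037, adjusted p = 2.42e-07). Counts of Eif4g2 per count of Eif4g1 were 1.11 and 1.16 in K36M and 1.87 and 1.88 in WT. The ratio of Eif4g3 to Eif4g1 overlapped between groups, at 0.17 and 0.167 in K36M and 0.167 and 0.175 in WT.

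Of the RNA helicase genes, Eif4a1 rose, with 726 and 728 CPM in K36M and 531 and 511 CPM in WT (log2 fold change 0.48 ± 0.035, adjusted p = 6.28e-10). Eif4a2, its close paralog, fell, with 352 and 378 CPM in K36M and 481 and 489 CPM in WT (log2 fold change -0.41 ± 0.039, adjusted p = 2.13e-08). The count ratio of Eif4a2 to Eif4a1 was 0.485 and 0.519 in K36M and 0.905 and 0.957 in WT, 1.86-fold lower in K36M. Eif4a3, the member of the exon junction complex, had 146 and 137 CPM in K36M and 143 and 138 CPM in WT, overlapping levels (log2 fold change 0.01 ± 0.044, adjusted p = 0.839). Among the helicase cofactors Eif4b rose, with 920 and 922 CPM in K36M and 769 and 791 CPM in WT (log2 fold change 0.24 ± 0.036, adjusted p = 6.94e-06), and Eif4h was not called (-0.06 ± 0.035, adjusted p = 0.107), though it passed as lower without K36M replicate 1 (0.0347) and under the authors' scaling factors (log2 fold change -0.15, adjusted p = 0.000752).

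**Figure D3:**
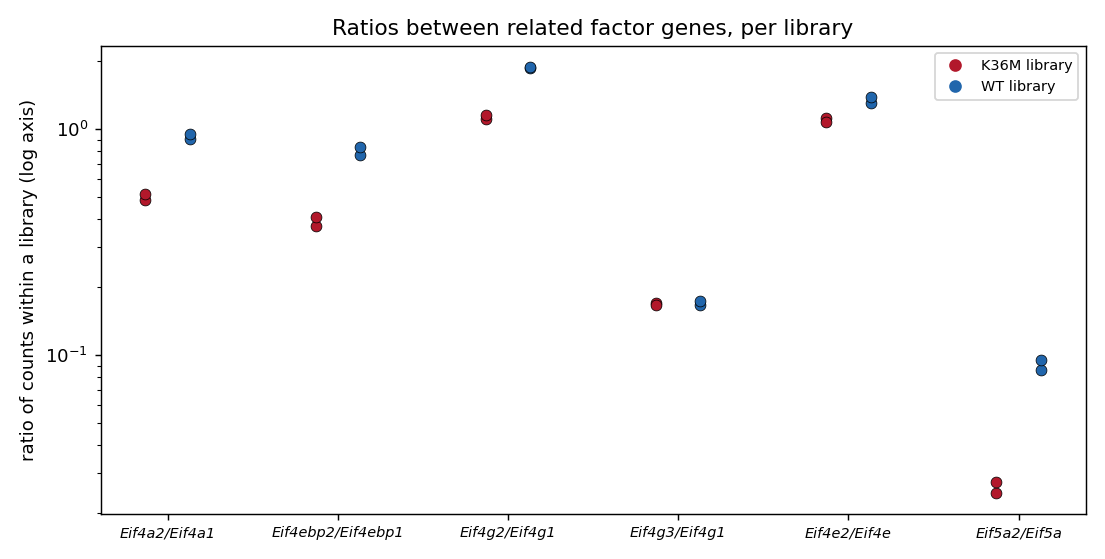
Ratio of the counts of related factor genes within each library (log axis, K36M red, WT blue, 2 libraries each); gene length is not taken out, so each ratio is read across libraries only. The groups are apart for 5 of the 6 ratios, with the K36M libraries lower, and overlap for Eif4g3/Eif4g1. Which group is lower depends on the gene written first, and 87.1% of all single genes tested were apart.

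In 5 of these 6 pairs of related genes, the K36M libraries lay below the WT libraries. Eef1a2 per Eef1a1 and Eif2s3y per Eif2s3x were also chosen and are not among the 6, since they held counts of 0. Eef1a2 per Eef1a1 lay above WT, at 1.85e-05 and 5.21e-06 in K36M and 4.97e-06 and 0 in WT, from few Eef1a2 counts. Eif2s3y per Eif2s3x was 0 in every library. The smallest shift among the 5 was Eif4e2 per Eif4e, at 1.12 and 1.08 in K36M and 1.31 and 1.39 in WT. Which group lies below depends on the gene written first. No share over other gene pairs was computed, while 87.1% of all single genes tested did not overlap between groups. Ratios within a library are free of the scaling between libraries. With 2 libraries against 2 a two-sided permutation test cannot give a p below 0.333, so they are given without a test.

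The eIF3 complex, the platform that holds the small subunit and the cap complex together, had 13 genes in the matrix. Of these 8 rose, 1 fell and 4 were not called (median log2 fold change 0.29). Of all genes tested 38.5% rose and 37.1% fell, with a median of 0.00. Eif3b, part of the core that binds the ribosome, rose furthest, with 292 and 281 CPM in K36M and 188 and 183 CPM in WT (log2 fold change 0.62 ± 0.038, adjusted p = 4.18e-11). The other large core genes Eif3a and Eif3c also rose. Eif3a had 777 and 785 CPM in K36M against 601 and 619 CPM in WT (log2 fold change 0.36 ± 0.035, adjusted p = 3.52e-08), and Eif3c rose by 0.55. Eif3i, Eif3l, Eif3d and Eif3k rose by 0.40, 0.31, 0.29 and 0.29.

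The other subunits lay near 0 or below. Eif3h rose by 0.13 (adjusted p = 0.00369), a call lost when WT replicate 2 was left out (0.0918) and under the authors' scaling factors (0.31). Eif3f had 182 and 179 CPM in K36M and 186 and 179 CPM in WT, overlapping levels (log2 fold change -0.02 ± 0.039, adjusted p = 0.732). Under the authors' scaling factors Eif3f and Eif3g passed as lower, with log2 fold changes of -0.10 and -0.14 (adjusted p = 0.0254 and 0.0162). Eif3g, Eif3j and Eif3m were not called, with log2 fold changes of -0.05, 0.08 and 0.05. Without K36M replicate 1, Eif3j and Eif3m passed as higher (adjusted p = 0.0369 and 0.0405). Eif3e was the subunit gene that fell, with 328 and 363 CPM in K36M and 408 and 401 CPM in WT (log2 fold change -0.23 ± 0.043, adjusted p = 9.97e-05), a call kept in all 12 alternatives. Log2 fold changes within this complex thus ranged from -0.23 to 0.62.

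Among the factors that select the start codon, Eif1a stood out. It encodes eIF1A, which scans with the small subunit, and had 242 and 259 CPM in K36M and 136 and 132 CPM in WT, 1.87-fold higher (log2 fold change 0.90 ± 0.042, adjusted p = 7.23e-13). The X-linked gene for the same factor, Eif1ax, rose by 0.17 (adjusted p = 0.00135), a call lost when WT replicate 2 was left out (0.0533) and under the authors' factors (0.0756). Eif1, which guards start codon choice, was not called, with 637 and 645 CPM in K36M and 618 and 597 CPM in WT (log2 fold change 0.08 ± 0.035, adjusted p = 0.0537). It passed as higher with DESeq2 size factors (0.0351), the upper quartile (0.00618), total counts (0.00279) and a mean of at least 5 CPM (0.0131). The DESeq2 Wald test also called it higher (0.047). Under the authors' scaling factors its log2 fold change was -0.0079 (adjusted p = 0.849). Leaving out K36M replicate 1 or K36M replicate 2 gave log2 fold changes of 0.09 and 0.07. Eif5, the GTPase-activating partner of eIF2, rose by 0.19, while Eif5b, which joins the ribosomal subunits, and Eif1b fell by 0.16 and 0.17 on the log2 scale. The Eif1b call was lost in 4 alternatives, with adjusted p = 0.1 without WT replicate 1.

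Within eIF2, the gamma and beta subunit genes rose and the alpha subunit gene was not called. Eif2s3x, encoding the gamma subunit that binds the initiator tRNA, had 408 and 420 CPM in K36M and 322 and 320 CPM in WT (log2 fold change 0.37 ± 0.036, adjusted p = 2.93e-08). Eif2s2 (beta) rose by 0.34, and Eif2s1 (alpha, the subunit that stress kinases phosphorylate) had 110 and 120 CPM in K36M and 112 and 106 CPM in WT (log2 fold change 0.08 ± 0.048, adjusted p = 0.161). Without K36M replicate 1, Eif2s1 passed as higher (0.00485). Eif2s3y, the Y-linked copy of the gamma subunit gene, had 0 counts in every library, which allows at most 0.0328 CPM over the K36M and 0.0628 CPM over the WT libraries.

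Of the 5 genes of eIF2B, the exchange factor that recharges eIF2, 1 rose, 1 fell and 3 were not called. Among all genes tested 38.5% rose and 37.1% fell. Eif2b3 (gamma subunit) rose, with 21.8 and 21.0 CPM in K36M and 13.6 and 15.9 CPM in WT (log2 fold change 0.54 ± 0.080, adjusted p = 7.12e-06), and Eif2b2 (beta) fell by 0.19 on the log2 scale. The catalytic subunit gene Eif2b5 had 112 and 115 CPM in K36M and 109 and 107 CPM in WT (log2 fold change 0.07, adjusted p = 0.157). Eif2b1 had 30.0 and 32.3 CPM in K36M and 31.4 and 30.6 CPM in WT (log2 fold change 0.00, adjusted p = 0.989).

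The 4 kinases of eIF2 alpha had lower mean levels in K36M, and 3 of them passed the test. Of all genes tested 37.1% were called lower, and 75.6% were called either way. Eif2ak3, encoding PERK, the sensor of unfolded proteins in the endoplasmic reticulum, fell, with 31.7 and 31.7 CPM in K36M and 40.1 and 42.9 CPM in WT (log2 fold change -0.39 ± 0.052, adjusted p = 2.46e-06). Eif2ak2, encoding PKR, the sensor of double-stranded RNA, had 55.2 and 58.3 CPM in K36M and 61.8 and 63.4 CPM in WT (-0.14 ± 0.048, adjusted p = 0.0115). Eif2ak1, encoding the heme-regulated kinase HRI, fell by 0.11 on the log2 scale (adjusted p = 0.0407). The last 2 calls were not stable, since Eif2ak2 lost its call in 5 of 12 alternatives (adjusted p = 0.0901 without WT replicate 2 and 0.0637 without K36M replicate 1) and Eif2ak1 in 7 (0.306 and 0.0899 without the same libraries). Eif2ak4, encoding GCN2, the sensor of uncharged tRNA, was not called, with 37.4 and 36.7 CPM in K36M and 38.4 and 39.8 CPM in WT (-0.08 ± 0.051, adjusted p = 0.179). Under the authors' scaling factors it was called lower (log2 fold change -0.16, adjusted p = 0.00745).

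The rule also took in 4 Argonaute genes, which guide small-RNA silencing and appear here under older Eif2c symbols. Of these Eif2c2 (Ago2), the slicer, rose, with 142 and 134 CPM in K36M and 115 and 121 CPM in WT (log2 fold change 0.23 ± 0.045, adjusted p = 0.000168). The other 3 fell. Eif2c4 (Ago4) had 3.96 and 4.60 CPM in K36M and 6.46 and 8.73 CPM in WT (-0.84 ± 0.14, adjusted p = 2.22e-05), and Eif2c3 (Ago3) had 18.8 and 18.5 CPM in K36M and 26.4 and 29.8 CPM in WT (-0.59 ± 0.069, adjusted p = 4.25e-07). Eif2c1 (Ago1) changed least of the 4, with 77.3 and 73.7 CPM in K36M and 84.7 and 86.9 CPM in WT (-0.18 ± 0.046, adjusted p = 0.00156). The spread between replicates was the widest of all members for Eif2c4, with a coefficient of variation of 21.2% in WT.

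The remaining members are factors outside the main route. Eif1ad, an eIF1A domain protein of ribosome maturation, rose by 0.33. Eif2a, an alternative carrier of initiator tRNA, was at 59.5 and 59.4 CPM in K36M and 55.1 and 55.0 CPM in WT (log2 fold change 0.11 ± 0.046, adjusted p = 0.0371), and Eif2d, which acts in non-canonical initiation and recycling, fell by 0.13 (adjusted p = 0.0276). Both calls were lost without WT replicate 1 (adjusted p = 0.181 and 0.0633) or WT replicate 2 (0.186 and 0.154), and the Eif2d call also without K36M replicate 1 (0.181).

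Other genes of the translation machinery were examined for comparison, from lists chosen by function with earlier results of these data known. Each list is read against the 38.5% higher and 37.1% lower of all genes tested and their median of 0.00. Pabpc1 is on both the list of cap and poly(A) partners and that of TOP mRNAs. Of 79 tested cytosolic ribosomal protein genes 74 rose and 1, Rpl22l1, fell (median log2 fold change 0.43), with Rpl23a and Rpl17 furthest at 0.75 and 0.74. Of 22 genes of cytosolic tRNA synthetases and their scaffold proteins 19 rose and 1, Dars, fell (median 0.44). Vars, which charges valine tRNA, had 351 and 324 CPM in K36M against 158 and 152 CPM in WT (log2 fold change 1.12), and Wars, for tryptophan, rose by 0.76. Of 9 TOP mRNAs that are neither ribosomal proteins nor members 8 rose and 1 fell (median 0.51). Gnb2l1, the ribosomal scaffold RACK1, and Hnrnpa1, an RNA-binding protein, rose by 0.70 each, while Vim, a cytoskeletal gene, fell by 0.54 on the log2 scale.

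Of 20 genes of the integrated stress response, which runs through phosphorylated eIF2 alpha, 15 were higher and 2 lower (median log2 fold change 0.59). Phosphorylation was not measured, and what moved these genes was not tested. Nupr1, a stress cofactor, and Psat1, a serine synthesis enzyme, rose by 1.96 and 1.40, while Vldlr and Cebpg fell by 0.23 and 0.16 on the log2 scale. Genes of the mTORC1 pathway were mixed, with 6 of 17 higher and 7 lower (median -0.08). That list holds inhibitors of mTORC1 beside other genes of the pathway, so its counts give no direction for the pathway. Rps6kb1, the kinase of ribosomal protein S6, rose by 0.64 and Rps6ka1 by 0.61, while Sesn1, an inhibitor of mTORC1, and Rps6ka2 fell by 1.06 and 0.98 on the log2 scale.

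**Figure D4:**
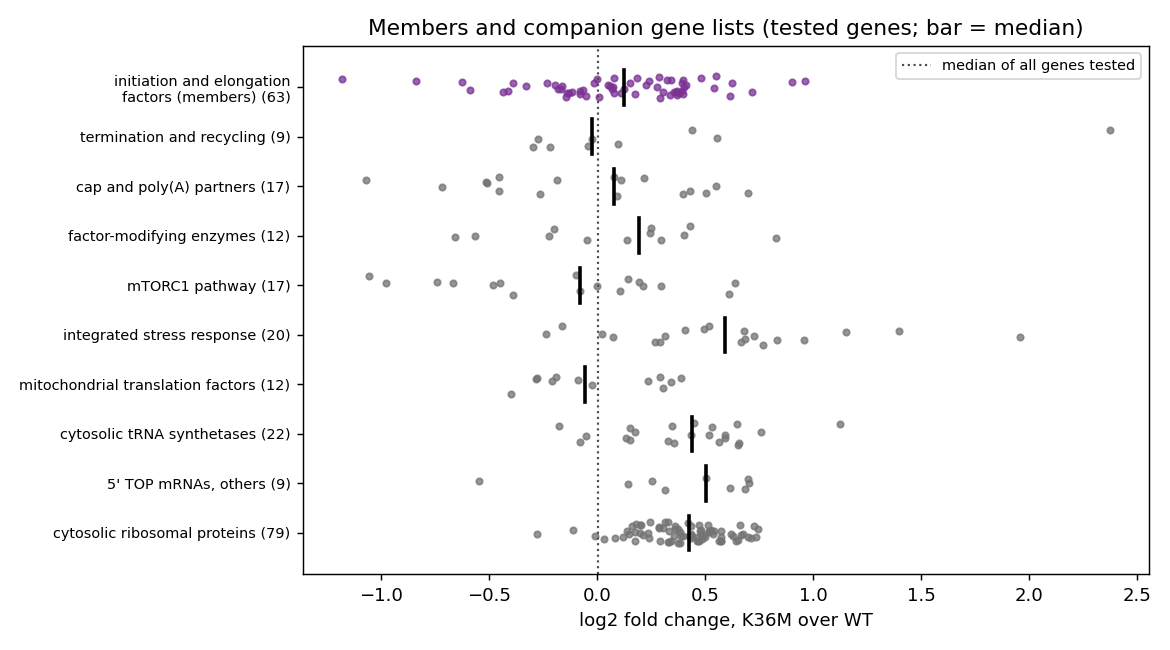
Log2 fold change (K36M over WT, horizontal axis) of each tested gene in the initiation and elongation factors (purple) and in the companion lists (grey), with the number tested in parentheses, a bar at the median and a dotted line at the median of all genes tested. Ribosomal protein and tRNA synthetase genes cluster to the right, at medians of 0.43 and 0.44, while the factors spread to both sides of a median of 0.13.

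Among 17 tested partners of the cap and the poly(A) tail, 7 rose and 8 fell (median 0.08). Pabpc4, a poly(A)-binding protein, and Larp1, which binds TOP mRNAs, rose by 0.70 and 0.55. Pdcd4, an inhibitor of eIF4A, fell, with 34.2 and 34.0 CPM in K36M and 69.8 and 73.4 CPM in WT (log2 fold change -1.07), and Cpeb2 fell by 0.72 on the log2 scale. Of 12 enzymes that modify or assist the factors 6 rose and 4 fell (median 0.19). Dhps, the first enzyme of hypusine synthesis on eIF5A, rose by 0.43, and Dph2, of diphthamide synthesis on eEF2, by 0.83, while Wdr85, also of diphthamide synthesis, and N6amt2 fell by 0.66 and 0.56.

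Termination and recycling genes showed no common direction, with 3 of 9 higher, 3 lower and 3 not called (median -0.02). The release factor genes Gspt2, at 10.9 and 11.8 CPM in K36M and 2.14 and 2.22 CPM in WT, and Etf1 rose by 2.38 and 0.55, while Pelo and Mcts2 fell by 0.29 and 0.27 on the log2 scale. Factors of mitochondrial translation were likewise even, with 5 of 12 higher and 5 lower (median -0.06). Lrpprc and Tufm, the mitochondrial counterpart of eEF1A, rose by 0.39 and 0.34, and the release factor genes Mtrf1 and Mtrf1l fell by 0.40 and 0.28.

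Some counts may include reads of near-identical copies. In GENCODE M21 the coding sequence of 15 of the 66 members had at least 1 copy in another gene at 95% identity over 80% of its length, among them 13 for Eif1 and 7 for Eef1a1. Copies of Eif1 and Eif4a3 had rows of their own in the matrix. Ribosomal protein genes are also known for many processed copies, which were not searched here. How reads were split between copies cannot be told from these files, so levels of these genes are uncertain to that extent.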

How the data were processed

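RNA of 2 K36M and 2 WT libraries was analysed from the authors' deposited matrix of RSEM expected counts. Per the submitters' processing notes, Bowtie 1.0.0, RSEM 1.2.12 and the mouse build mm9 were used; the annotation, poly(A) selection and strand are not given in the sources used here. A second table deposited by the authors holds log2 values and a fold ratio for 594 genes, none of them members, and served only to derive the authors' factor per library.

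Expected counts were rounded to whole numbers; edgeR 4.0.16, run in R 4.3.3, gave the main test (filterByExpr, TMM, quasi-likelihood F test with 2 residual and 15.7 prior degrees of freedom, Benjamini-Hochberg adjustment over 13162 genes). The biological coefficient of variation estimated by edgeR was 3.33%. CPM use the TMM library sizes, standard errors are the log2 fold change over the root of F, and n = 2 libraries per group. A floor is 3 counts. Within each group the libraries were further apart than sampling of reads alone would give (chi-square per gene averaging 7.46 in K36M and 3.50 in WT). Each was counted as a replicate, but this excess can be technical and does not show that the libraries were separate cultures. Replicate numbers did not enter the fit. Simulated counts (12926 genes past the filter) served as a check of the steps used for K36M against WT. In them few genes were changed, rises equalled falls in number, and every gene had the same dispersion. The test found 23 of 50 genes changed 1.2-fold, 43 of 50 changed 1.5-fold, 45 of 50 changed 2-fold and 49 of 50 changed 4-fold. There were 4 false among 164 calls. In the real data 75.6% of genes were called, so these rates do not carry over to them.

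Members, roles and gene lists were chosen with earlier results of these data known. Every member could be named; values in each library were set for members called at 1.5-fold or more and for the most abundant and the least changed member of each role, and 2 genes per direction were named from each companion list. Ctif was on a list and had no row in the matrix. Promoters are RefSeq GRCm38.p6 and copies were searched in GENCODE M21 coding sequences, neither being the build of the counts. Alternatives were 4 other scalings, 2 filters, DESeq2 1.42.0, a replicate block and leaving out each library.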

Additional observations from a re-analysis of the deposited data

How the results depend on the processing

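Over 12 alternatives, 29 of the 33 members that rose and 12 of the 17 that fell kept their calls in every one. The calls lost in some were those of Eif1ax, Eif2a, Eif3h and Eif4e among the rises and Eif1b, Eif2ak1, Eif2ak2, Eif2d and Eif4e2 among the falls. The number of members called higher ranged from 29 to 38 and lower from 12 to 22, with 29 higher and 22 lower under the authors' factors and 38 and 12 with total counts. The authors' factors move the median of all genes by -0.09 (log2). The share of higher calls was 66% of members called and 51.0% of all genes called with TMM, 56.9% and 43.3% with the authors' factors, and 76% and 55.9% with total counts.

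The sign changed only in members that were not called, 18 values of 10 genes with adjusted p at or above 0.119. Under the authors' factors these were Eif1 (-0.0079), Eif2b1 (-0.085), Eif2b4 (-0.025), Eif2b5 (-0.018), Eif2s1 (-0.0093), Eif3j (-0.0078), Eif3m (-0.033) and Eif4a3 (-0.076). Eif2b1 was at -0.0058 with no filter, and Eif3f at 0.026 with the upper quartile, 0.035 with total counts and 0.0079 at a mean of at least 5 CPM. Leaving out a library gave -0.045 to 0.062 for Eif2b1, -0.049 to 0.0081 for Eif3f, -0.11 to 0.00037 for Eif3g and -0.037 to 0.058 for Eif4a3. In 24 values of 10 members not called, the alternative passed the threshold. Eif2ak4, Eif3f, Eif3g, Eif4ebp2 and Eif4h did so as lower under the authors' factors. With total counts Eif1, Eif2b5, Eif2s1, Eif3j and Eif3m did so as higher (adjusted p = 0.00279, 0.0184, 0.0238, 0.0144 and 0.0357).

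Among the companion lists, the genes called lower in termination and recycling numbered 5 under the authors' factors and 1 with DESeq2, in mitochondrial translation 3 with DESeq2, among tRNA synthetases 3 under the authors' factors and among ribosomal proteins 2 with no filter. Leaving out a library gave 2 to 4 for the modifying enzymes, 0 to 2 for the synthetases and 1 to 2 for the ribosomal proteins. The causes were not tested. Same-numbered libraries did not deviate together (r = 0.000804 over 13162 genes). No pairing by number was seen in the counts, which cannot show whether such libraries were prepared together. A fit with the replicate number as a block called the same 33 higher and 17 lower members. Rounding of the expected counts left the 6 ratios within the spread between replicates.

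With 2 libraries per group the test rests on the spread of other genes, changes under 1.2-fold are near its limit, and genes of a few CPM (Eif2c4, Eif4e3, Eif4ebp3) have the widest errors.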
